A study of Homo sapiens with 34 samples.

Results

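The 4-thiouridine (s4U) effect described here is the change in messenger RNA levels between cells that grew in s4U and cells that did not, early in a SLAM-seq experiment. All libraries labelled with s4U and collected at 0, 10, 20 or 45 min of chase were set against all libraries labelled "no label", which gave 12 s4U and 4 unlabelled libraries, 16 of the 34 in the series. The 18 later s4U libraries entered no test. Of 19041 genes in the tables, 12821 had enough reads to be tested.

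SLAM-seq feeds cells a thiolated uridine that is built into new RNA, alkylates the thiol after extraction, and reads the modified bases as T-to-C changes. The method rests on the label leaving the cells' own transcription and RNA decay as they are, so the unlabelled libraries serve as its control. Thiolated nucleosides at high dose are known to disturb ribosomal RNA processing and to stabilise p53, the transcription factor that switches on cell cycle arrest and repair genes. Other stress programmes, such as the unfolded protein response of the endoplasmic reticulum (ER), are read through their own target genes.

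The cells were hTERT-RPE1, a telomerase-immortalised human retinal pigment epithelium line, in 2 polyclonal derivatives that were both kept in 0.5 µg/mL doxycycline. The knockdown line carried an inducible short hairpin RNA against CCND1, which encodes cyclin D1, and gave large cells. The overexpression line carried the same kind of hairpin together with an inducible, hairpin-resistant CCND1 allele, and gave small cells. From day 4 of induction the s4U cells were pulsed over 24 h at 10 µM, their medium being exchanged each 3 h, whereas unlabelled cells received 10 µM uridine and were collected with the 0 min cells. Chase began with a wash and a medium that held 1 mM uridine. Each line had 2 numbered courses with an unlabelled library of their own. In knockdown replicate 1 the early libraries were 0 and 45 min, in overexpression replicate 1 they were 0 and 20 min, and both replicate 2 courses held 0, 10, 20 and 45 min. The labels do not say whether replicates were separate cultures, so p-values measure the spread between these libraries, and the early libraries of 1 course shared a pulse. CCND1 itself was read over its 3′ UTR at 152 to 197 CPM (the reads of a gene scaled to a common library total) in s4U knockdown cells and 46.4 to 67.1 CPM in s4U overexpression cells, against 78.9 and 164.2 CPM in unlabelled knockdown cells and 66.9 and 63.5 CPM in unlabelled overexpression cells. Every library of the knockdown line was thus above every library of the other. Per the study's methods the hairpin targets the 3′ UTR of CCND1 and both lines express it, and whether the resistant allele carries that 3′ UTR is not given, so these reads need not report the allele. With no uninduced library among the 16 they do not check the line labels, for which the study had protein measurements of its own. The comparison of s4U with unlabelled cells is made within lines.

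Conversion marked the label in every library. The mean T-to-C rate of the early s4U libraries was 0.877% of covered T positions in knockdown replicate 1, 0.816% in knockdown replicate 2, 0.928% in overexpression replicate 1 and 0.927% in overexpression replicate 2. In the same order the unlabelled libraries read 0.0194%, 0.0296%, 0.0176% and 0.0279%. The courses averaged 0.887% ± 0.0530 with s4U and 0.0236% ± 0.0060 without (SD, n = 4 courses each), and every s4U value lay above every unlabelled one. The exact two-sided permutation test gave p = 0.0286, the smallest that 4 courses against 4 can give. It permuted the values freely and did not keep the s4U and unlabelled values of a course paired.

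Both unlabelled replicate 1 libraries stood apart from the rest of their line. The log2 CPM profile of the knockdown one correlated with the mean of its line at r = 0.879 and that of the overexpression one at r = 0.897, against 0.958 to 0.983 for the other 14 libraries. Of 8377 genes with a mean of at least 10 CPM, 17 and 22 fell under 1 CPM in these 2 libraries, against 0 to 2 in the others. The overexpression one was also the shallowest, with 14712332 reads in 3′ UTR intervals where the deepest library held 44480703. As a result the 4 courses differed widely in how far genes departed from the unlabelled library. The departure was over 2-fold for 22.3% of the genes of at least 10 CPM in knockdown replicate 1 and 12.9% in overexpression replicate 1, but for 0.322% in knockdown replicate 2 and 0.454% in overexpression replicate 2. Most called genes named below and the main gene lists are therefore also given for the replicate 2 courses alone. DPM1 and UBE2T, called for the difference between lines, are not. In replicate 2 each line has 1 unlabelled library and 4 s4U libraries that shared a pulse. Adjusted p-values from these courses thus measure mostly the spread between chase times of a pulse, and little of that between cultures.

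In the test over all 16 libraries, few genes changed. With line as a covariate, edgeR's quasi-likelihood test called 40 of 12821 genes at a Benjamini-Hochberg adjusted p under 0.05, which is 0.312%. Of these, 7 were higher with s4U (0.0546% of genes) and 33 lower (0.257%). The 7 include PHEX, which had 0 reads in all 4 unlabelled libraries and passed the filter on low counts through the s4U libraries alone. The 33 include KCNE4 and SLC18A1, which averaged 0.144 and 0.388 CPM with s4U and 6.46 and 12.5 CPM without. Their intervals had 97.8% and 92.5% multimapped reads. At an unadjusted p under 0.05 there were 996 higher (7.77%) and 1571 lower genes (12.3%). The replicate numbers as a block left 17 calls (0.133%), and 16 of them were among the 40. The replicate 2 courses alone gave 16 calls among 13144 genes (0.122%), and the replicate 1 courses alone 1 call (0.00785% of 12735 genes). When the reads of each course were summed, so that 4 s4U sums met 4 unlabelled libraries, edgeR called 0 genes, with 477 at an unadjusted p under 0.05. In the data of all 16 libraries DESeq2 called 512, 156 higher and 356 lower.

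CDKN1A had the lowest p of all genes. It encodes p21, the cyclin-dependent kinase inhibitor that p53 induces, and its 3′ UTR interval lies at chr6:36685801-36687339 on the plus strand of hg38. The 12 s4U libraries read 240.0 CPM at the lowest, 280.5 at the median and 305.1 at the highest. The unlabelled libraries read 123.0 and 187.8 CPM in knockdown replicates 1 and 2 and 126.5 and 184.3 CPM in overexpression replicates 1 and 2. All 12 s4U values lay above both unlabelled values of their line, and indeed above all 4. Such a lack of overlap in both lines was seen in 46 genes on the higher side (0.359%) and 89 on the lower (0.694%). The log2 change was 0.84 ± 0.13 (SE), with an edgeR adjusted p of 0.0099, 0.0012 with the replicate block and 0.000275 in the replicate 2 courses alone, where it was 0.64. It was also the 1 gene called in both lines, at 0.82 ± 0.18 in knockdown (adjusted p 0.0461, edgeR) and 0.87 ± 0.18 in overexpression (adjusted p 0.0422, edgeR). With course sums its edgeR adjusted p was 0.87, at an unadjusted 0.0012. In bulk libraries, more cells with the transcript and more of it per cell cannot be told apart.

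**Figure D1:**
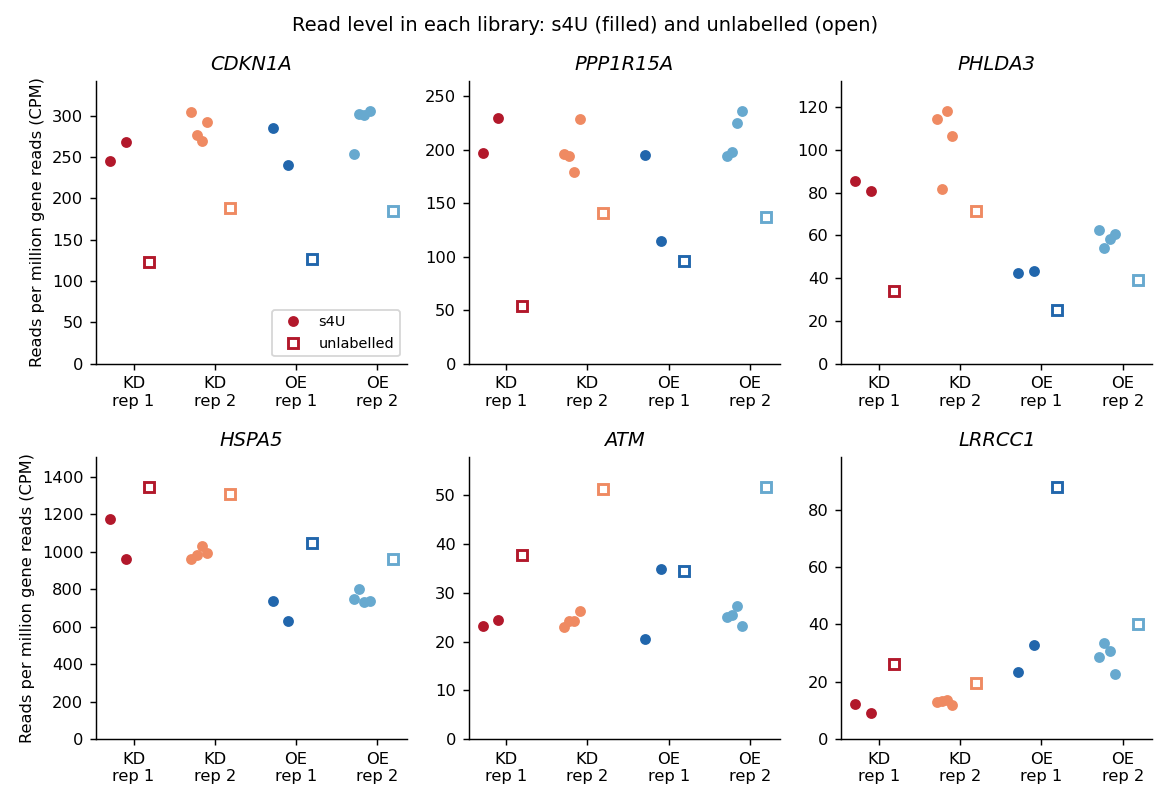
CPM of 6 genes in each early library (y axis, linear from 0), by course (x axis; KD, knockdown; OE, overexpression). Filled circles are s4U libraries in order of chase time and open squares are the unlabelled library of the course. For CDKN1A all 12 circles lie at or above 240.0 CPM and all 4 squares at or below 187.8 CPM, and for HSPA5 every circle lies below the square of its own course.

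Beside CDKN1A, 4 genes were higher past both limits set for naming, a mean of at least 10 CPM and the same sign in all 4 courses. PPP1R15A, which encodes the GADD34 subunit that returns eIF2α to its unphosphorylated state after stress, read 114.9, 196.3 and 235.9 CPM (lowest, median and highest) in s4U libraries. Its unlabelled libraries read 53.9 and 141.2 CPM in knockdown and 96.0 and 137.4 CPM in overexpression replicates 1 and 2. The exception to a full separation was the overexpression replicate 1 library at 20 min, and the change was 0.90 ± 0.20 (adjusted p 0.0459, edgeR), or 0.58 in the replicate 2 courses (adjusted p 0.0078, edgeR). PHLDA3, a p53 target that restrains AKT, read 42.7, 71.7 and 118.1 CPM with s4U. Its unlabelled libraries read 33.8, 71.3, 25.2 and 38.9 CPM, in the order knockdown 1 and 2 and overexpression 1 and 2 that is kept below. Within each line all s4U values were higher, and the change was 0.82 ± 0.18 (adjusted p 0.0459, edgeR), with 0.59 in the replicate 2 courses (adjusted p 0.0506, edgeR). RHBDD2, a rhomboid-like membrane protein gene, rose by 0.78 ± 0.17 and VAT1, a vesicle membrane protein gene, by 0.67 ± 0.14, both at an edgeR adjusted p of 0.0459 and both without overlap in either line. In the replicate 2 courses they were at 0.68 (adjusted p 0.0731, edgeR) and 0.39 (adjusted p 0.16, edgeR).

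A further higher gene, PHEX, which encodes a membrane endopeptidase that controls phosphate balance, was seen after its values were known. It had 0 reads in all 4 unlabelled libraries and 7 to 115 reads in each s4U library, a mean of 1.63 CPM. A floor of 3 reads per unlabelled library averaged 0.123 CPM, and the s4U mean was 13.3-fold above that mean. Single s4U libraries ran from 0.217 to 3.10 CPM, so the fold is one of means and not a lower limit for each library. No p is given, since the gene passed the filter on low counts through the s4U libraries alone. Its level in the later s4U libraries was 0 to 1.97 CPM, with 3 of 18 at 0. The libraries carried no molecular identifiers, so that reads are not independent molecules and the floor covers counting error only.

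The lower genes included ATM, the kinase that starts the response to DNA double-strand breaks. The s4U libraries read 20.5, 24.2 and 34.9 CPM over its 3′ UTR interval (chr11:108365509-108369102, plus strand, hg38), against 37.7, 51.1, 34.5 and 51.6 CPM in unlabelled libraries. Of the s4U values 11 of 12 lay below both unlabelled values of their line, the overexpression replicate 1 library at 20 min being the exception. The change was -0.80 ± 0.15 (adjusted p 0.0294, edgeR). ATM differed from most lower genes in that the replicate 2 courses showed more of it (-1.04, adjusted p 0.000196, edgeR) than the replicate 1 courses (-0.51). The later s4U libraries entered no test, and at 1440 min of chase they read 38.0 to 59.7 CPM, a range that overlaps that of the unlabelled libraries.

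HSPA5, which encodes the ER chaperone BiP, read 630.2, 881.3 and 1172 CPM in s4U libraries and 1344, 1310, 1045 and 960.8 CPM in unlabelled ones. All 12 s4U values were below both unlabelled values of their line. The change was small and even between courses, at -0.37 and -0.40 in knockdown and -0.60 and -0.33 in overexpression replicates 1 and 2, or -0.42 ± 0.09 in all (adjusted p 0.0459, edgeR). Its interval (chr9:125234853-125236591, minus strand, hg38) had 17.7% multimapped reads. SEL1L, the adaptor of the ER ubiquitin ligase that clears misfolded proteins, fell by 0.71 ± 0.15 (adjusted p 0.0459, edgeR), with 35.9, 44.7 and 63.6 CPM in s4U libraries and 87.9, 57.1, 97.9 and 59.1 CPM in unlabelled ones, and was at -0.45 in the replicate 2 courses (adjusted p 0.16, edgeR).

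LRRCC1, a centriole protein gene, read 9.04, 18.3 and 33.6 CPM with s4U and 26.1, 19.5, 87.9 and 40.1 CPM without, with no overlap within a line and a change of -1.03 ± 0.17 (adjusted p 0.0264, edgeR). NUF2, of the kinetochore's NDC80 complex, read 45.3, 99.4 and 163.5 CPM with s4U and 118.3, 96.1, 238.0 and 167.3 CPM without, at -0.64 ± 0.13. In the replicate 2 courses they were at -0.51 (adjusted p 0.23, edgeR) and -0.36 (adjusted p 0.18, edgeR). CEP192, of the centrosome, fell by 1.15 ± 0.23 and KIF3A, a transport kinesin, by 1.05 ± 0.23 on the log2 scale (adjusted p 0.0459 each, edgeR). With the replicate block neither was called (adjusted p 0.0559 each, edgeR), and in the replicate 2 courses they were at -0.42 (adjusted p 0.52, edgeR) and -0.55 (adjusted p 0.40, edgeR).

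SRSF4, a splicing factor of the SR family, fell by 0.75 ± 0.14 and RAD51AP1, which acts in homologous recombination, by 0.95 ± 0.18 (adjusted p 0.0317 each, edgeR). In the replicate 2 courses they were at -0.51 (adjusted p 0.0969, edgeR) and -0.41 (adjusted p 0.19, edgeR). Of the genes named by size, 7 more had an edgeR adjusted p of 0.0459, and all 7 lost the call with the replicate block (adjusted p 0.0559 to 0.0679, edgeR). RIDA changed by -1.19, TRHDE by -0.93, DSCC1 of the cohesion machinery by -0.89, the calcium channel gene ITPR2 by -0.89, EDEM3, which trims sugars for ER disposal, by -0.84, MRPL39 of the mitochondrial ribosome by -0.80 and SMCHD1, a chromatin silencer, by -0.80. In the replicate 2 courses their changes were -0.22 for RIDA, -0.52 for TRHDE, -0.61 for DSCC1, -0.61 for ITPR2, -0.28 for EDEM3, -0.33 for MRPL39 and -0.41 for SMCHD1, at edgeR adjusted p-values of 0.22 to 0.76. SERPINA1, which encodes alpha-1 antitrypsin, had the largest fall among called genes of at least 10 CPM (-4.58 ± 0.82, adjusted p 0.0294, edgeR). It rested on 1 library: the unlabelled values were 5.04, 1.20, 163.2 and 1.76 CPM against 0.408, 0.895 and 3.59 CPM with s4U, its intervals had 77.2% multimapped reads, and the replicate block gave an adjusted p of 0.0693 (edgeR). In the replicate 2 courses the change was -0.65 (adjusted p 0.85, edgeR).

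The replicate 2 courses showed the direction of most of the 40 genes with a smaller size. Of the 33 lower genes 31 had the same sign there, 23 of them at an unadjusted p under 0.05. Z82206.1 had the opposite sign, at 0.04, and KCNE4 was not tested there. The median log2 change of the lower genes was -0.42, against -1.12 in the replicate 1 courses. All 7 higher genes kept their sign, with a median of 0.64 against 1.05. PHEX, among these 7, had 0 reads in every unlabelled library, so its sign could not differ. The replicate 2 libraries were part of the test that called these genes, so this is a description of where the change lay. Over the 12361 genes fitted in both sets of courses, which share no library, 52.99% had the same sign, and the correlation across genes was 0.117 (Pearson) and 0.077 (Spearman). No gene was called in both sets. Genes at an unadjusted p under 0.05 in both numbered 113 higher, 103 lower and 124 of opposite sign.

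**Figure D2:**
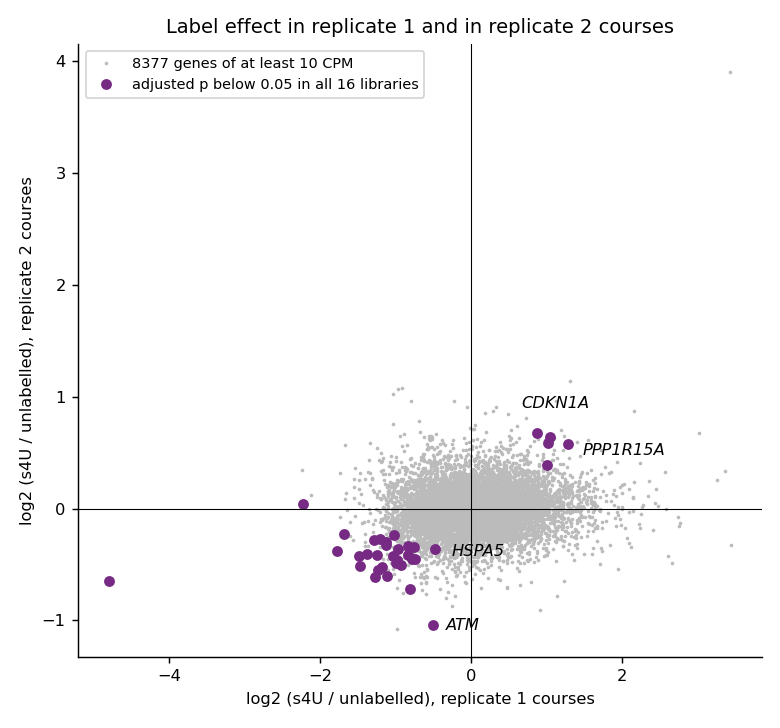
Log2 change, s4U over unlabelled, of 8377 genes of at least 10 CPM in the replicate 1 courses (x axis) and the replicate 2 courses (y axis), with lines at 0. Purple points are the called genes of that level in the test over 16 libraries. CDKN1A and PPP1R15A lie in the upper right, HSPA5 and ATM in the lower left and most points spread more widely along x than along y.

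The 16 calls of the replicate 2 courses held 4 of the 40 genes, ATM, CDKN1A, HSPA5 and PPP1R15A. The other 12 were named after their values were seen. Among them IER3, an immediate early stress gene, was higher by 0.91 (adjusted p 0.000676, edgeR), GSTP1, a glutathione transferase gene, by 0.35 and the ribosomal protein genes RPS27A, RPS12 and RPL27A by 0.39, 0.38 and 0.28. IER3 also rose over the chase, from 300.7 CPM at 0 min to 552.1 at 45 min in knockdown replicate 2 (202.7 unlabelled). In overexpression replicate 2 it went from 169.8 to 248.7 CPM (119.6 unlabelled). In replicate 1 it was higher with s4U in knockdown (266 and 372.6 against 141.4 CPM) and lower in overexpression (185 and 162.9 against 225 CPM). RPL22L1, a paralog of the ribosomal protein gene RPL22, was lower by 0.57 (-0.57, adjusted p 0.0020, edgeR), and MANF, a secreted ER stress factor, was at -0.53 (adjusted p 0.0257, edgeR). Of the 16, 10 had the same sign in the replicate 1 courses, 5 of them at an unadjusted p under 0.05. MANF, at 0.23, and RPS12, at -0.48, were among those with the opposite sign there.

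Pathways were followed through gene lists. The DESeq2 counts given for the lists stand beside 156 higher and 356 lower among all 12821 genes, and some lists lie near that share. Of 34 tested p53 targets, 2 were called higher (CDKN1A and PHLDA3) and 0 lower by edgeR, 2 higher and 2 lower by DESeq2, and 10 higher and 2 lower at an unadjusted p under 0.05 (29.4% and 5.88%, against 7.77% and 12.3% of all genes). In all 4 courses 13 were higher (38.2%, against 8.35% of all genes) and 1 lower (against 8.67% of all genes). The median log2 change was 0.24, against -0.01 over all genes tested, 0.23 in the replicate 1 and 0.30 in the replicate 2 courses and 0.13 with an offset for the T share of the 3′ UTR, and the list's median in single s4U libraries, each set against the unlabelled library of its course, ran from 0.11 to 0.36. BBC3, the apoptosis gene PUMA, was at 0.87 (adjusted p 0.17, edgeR), FDXR, a mitochondrial reductase gene, at 0.59 (adjusted p 0.16, edgeR) and ZMAT3, an RNA-binding protein gene, at 0.32 (adjusted p 0.21, edgeR). Other members had the opposite sign. MDM2, the ubiquitin ligase that p53 induces as its own brake, was at -0.17 ± 0.16 (adjusted p 0.57, edgeR) and at 0.30 in the replicate 2 courses. PMAIP1, the apoptosis gene NOXA, was at -0.71 (adjusted p 0.0563, edgeR) and GADD45A, a growth arrest gene, at -0.55 (adjusted p 0.0936, edgeR).

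Of 22 genes of the ER stress list, edgeR called 2 lower (HSPA5 and SEL1L) and 0 higher, DESeq2 5 lower and 0 higher, and at an unadjusted p under 0.05 there were 14 lower and 0 higher (63.6% lower, against 12.3% of all genes). In all 4 courses 10 were lower and 0 higher (45.5% lower, against 8.67% of all genes). The median was -0.31, with -0.39 in the replicate 1 and -0.20 in the replicate 2 courses and -0.27 with the T share offset, and single s4U libraries had list medians of -0.35 to -0.12. Among chaperones, PDIA4 was at -0.51 (adjusted p 0.0685, edgeR), HSP90B1, which encodes GRP94, at -0.44 (adjusted p 0.0714, edgeR), HYOU1 at -0.52 (adjusted p 0.0809, edgeR) and CALR at -0.30 (adjusted p 0.17, edgeR). CANX, which encodes the lectin chaperone calnexin, was at -0.00 (adjusted p 1.0, edgeR).

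Genes of this kind are known for the ER stress response element, a CCAAT part bound by NF-Y and a CCACG part bound by ATF6, held 9 bases apart. The element, searched as CCAAT, 9 free bases and CCACG on both strands, was found in 22 of 27305 RefSeq promoters of GRCh38.p14 (0.0806%), each taken from 250 bases before to 50 after the start, and in 6 of the 21 promoters matched to the list (28.6%). The windows that hold it are shown so that the members with it can be set beside their changes, with both parts in capitals (on the reverse strand they read CGTGG and ATTGG), 5′ to 3′ on the gene's strand.
HSPA5, chr9:125241386-125241414, minus strand: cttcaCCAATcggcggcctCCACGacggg
HSP90B1, chr12:103930211-103930239, plus strand: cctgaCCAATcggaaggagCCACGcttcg
HSP90B1, chr12:103930316-103930344, plus strand: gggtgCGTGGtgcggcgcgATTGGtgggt
CALR, chr19:12938379-12938407, plus strand: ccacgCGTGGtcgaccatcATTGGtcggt
XBP1, chr22:28800598-28800626, minus strand: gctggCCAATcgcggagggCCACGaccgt
CRELD2, chr22:49918549-49918577, plus strand: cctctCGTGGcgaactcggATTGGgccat
CANX, chr5:179698773-179698801, plus strand: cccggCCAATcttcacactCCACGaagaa
Their log2 changes were -0.42 for HSPA5, -0.44 for HSP90B1, -0.30 for CALR, -0.31 for XBP1, -0.31 for CRELD2 and -0.00 for CANX, of which HSPA5 alone was called. SEL1L, the other called member, has no match in its window. A match is a run of letters and not a measured site.

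Of 33 sterol and fatty acid synthesis genes 0 were called by edgeR, with 14 lower and 2 higher at an unadjusted p under 0.05 (42.4% and 6.06%, against 12.3% and 7.77% of all genes), and 5 lower and 1 higher were called by DESeq2. In all 4 courses 12 were lower and 3 higher (36.4% and 9.09%, against 8.67% and 8.35% of all genes), and the median was -0.25, with -0.19 in the replicate 1 and -0.15 in the replicate 2 courses. SCD, the stearoyl-CoA desaturase gene, was at -0.63 (adjusted p 0.0639, edgeR), IDI1, of isoprenoid synthesis, at -0.69 (adjusted p 0.0639, edgeR) and HMGCS1, which makes HMG-CoA, at -0.67 ± 0.19 (adjusted p 0.0895, edgeR) with -0.01 in the replicate 2 courses.

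The mitosis list was uneven between lines. Of 39 genes, 1 (NUF2) was called lower by edgeR and 7 by DESeq2, and 16 were lower and 1 higher at an unadjusted p under 0.05 (41.0% and 2.56%, against 12.3% and 7.77% of all genes). The median was -0.17, and -0.12 with the T share offset. By course the median was -0.71 and -0.32 in knockdown replicates 1 and 2 and 0.08 and -0.04 in overexpression replicates 1 and 2. MKI67, the proliferation marker Ki-67, was at 0.04 (adjusted p 0.91, edgeR). Of 36 DNA damage response genes 2 were called lower by edgeR (ATM and RAD51AP1) and 3 by DESeq2, and 10 were lower in all 4 courses and 0 higher (27.8% lower, against 8.67% of all genes). The median was -0.14, and -0.12 in the replicate 2 courses. ATR, the kinase that responds to stalled replication, was at -0.80 (adjusted p 0.0852, edgeR) with -0.18 in the replicate 2 courses.

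Ribosomal protein genes lay on the higher side. Of 81, edgeR called 0 in the 16 libraries, where 29 were higher and 8 lower at an unadjusted p under 0.05 (35.8% and 9.88%, against 7.77% and 12.3% of all genes), and it called 4 in the replicate 2 courses, while DESeq2 called 4 higher in the 16 libraries. In all 4 courses 32 were higher and 2 lower (39.5% and 2.47%, against 8.35% and 8.67% of all genes). The median was 0.20, with 0.17 in the replicate 2 courses and 0.11 with the T share offset, and single libraries had list medians of 0.07 to 0.34. Oxidative phosphorylation genes had a median of 0.17, with 0.15 in the replicate 2 courses and 0.10 with the T share offset. Of 82, 24 were higher in all 4 courses (29.3%, against 8.35% of all genes) and 0 lower (against 8.67% of all genes). At an unadjusted p under 0.05, 25 were higher and 6 lower (30.5% and 7.32%, against 7.77% and 12.3% of all genes). Of the 82, edgeR called 0, and DESeq2 called 5 higher and 2 lower. Genes that handle uridine and pyrimidines were followed as well. Of 41, 0 were called by edgeR and 0 by DESeq2, 4 were higher and 12 lower at an unadjusted p under 0.05 (9.76% and 29.3%, against 7.77% and 12.3% of all genes), and the median was -0.09, with -0.03 in the replicate 2 courses. UPP1, the uridine phosphorylase gene, was at 0.47 (adjusted p 0.22, edgeR), UCK2, a uridine-cytidine kinase gene, at 0.00 (adjusted p 0.98, edgeR) and SLC29A1, a nucleoside carrier gene, at 0.09 (adjusted p 0.72, edgeR).

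Other stress programmes held few calls. Among 30 ATF4 targets PPP1R15A was the 1 call of edgeR (DESeq2 called 2 higher), and ATF3 at 0.17 (adjusted p 0.91, edgeR) and DDIT3 at 0.09 (adjusted p 0.80, edgeR), both transcription factors of the integrated stress response, were not called. Among 26 NRF2, 35 interferon, 26 NF-kB and 25 heat shock genes edgeR called 0. At an unadjusted p under 0.05 there were 2 higher and 5 lower NRF2 genes, 8 and 4 interferon genes, 3 and 2 NF-kB genes and 3 and 5 heat shock genes. The higher shares were 7.69%, 22.9%, 11.5% and 12% and the lower shares 19.2%, 11.4%, 7.69% and 20.0% in that order, against 7.77% and 12.3% of all genes. DESeq2 called 3, 1, 2 and 3 lower and 1 heat shock gene higher. HMOX1, the heme oxygenase gene, was at -0.53 (adjusted p 0.30, edgeR), IFIT1, an interferon-induced gene, at -1.20 (adjusted p 0.24, edgeR) and NFKBIA, the inhibitor of NF-kB, at -0.21 (adjusted p 0.33, edgeR). NCL, the nucleolar gene nucleolin, was at 0.04 (adjusted p 0.86, edgeR) and MYC at -0.00 (adjusted p 1.0, edgeR). TXNIP, a glucose-responsive gene, was above both unlabelled libraries of its line in all 12 s4U libraries, at 1.41 ± 0.40, and was not called (adjusted p 0.0881, edgeR).

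**Figure D3:**
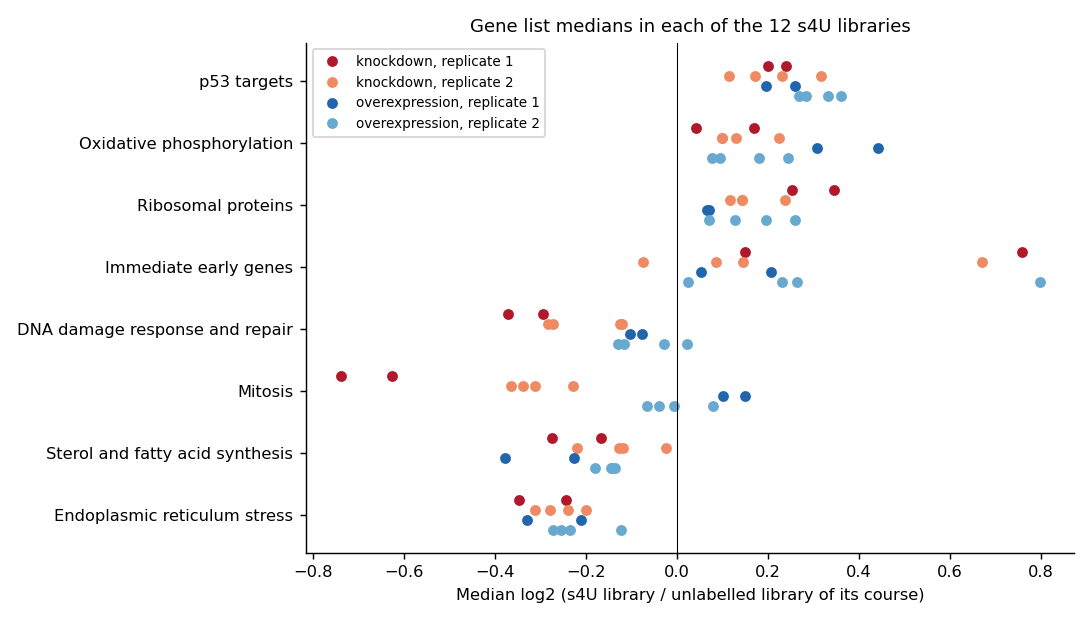
Median log2 change of 8 gene lists (rows) in each of the 12 early s4U libraries against the unlabelled library of its own course (x axis), coloured by course, with a line at 0. The p53 list lies between 0.11 and 0.36 and the ER stress list between -0.35 and -0.12 in every library, while the immediate early list spreads up to 0.80.

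Immediate early genes, which respond to growth factors within minutes, differed by chase time. Of 40, edgeR called 0, with 14 higher and 2 lower at an unadjusted p under 0.05 (35.0% and 5.00%, against 7.77% and 12.3% of all genes) and 5 higher by DESeq2, and the median was 0.22. The 4 libraries at 0 min had list medians of -0.08 to 0.21, and the 3 at 45 min 0.67 to 0.80. FOS read 0.508 to 1.51 CPM at 0 min and 31.0 to 38.5 CPM at 45 min, against 0 to 1.10 CPM in unlabelled libraries. EGR1 read 2.22 to 8.84 CPM at 0 min and 231.1 to 414.1 CPM at 45 min, against 1.40 to 9.10 CPM in unlabelled libraries, and IER2 170.8 to 237.5 CPM and 470.4 to 521.4 CPM, against 120.6 to 190.1 CPM. At 0 min the FOS and EGR1 ranges overlapped those of unlabelled libraries, and at 45 min they lay wholly above. The unlabelled cells were collected with the 0 min cells and saw no chase medium, so for the later libraries the chase and the label cannot be told apart. CDKN1A, by contrast, read 244.7 to 304.5 CPM at 0 min and 267.8 to 305.1 CPM at 45 min. With the 0 min libraries alone its change was 0.83 (unadjusted p 0.0015, adjusted p 0.89, edgeR), and edgeR called 0 genes there, with 431 at an unadjusted p under 0.05.

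**Figure D4:**
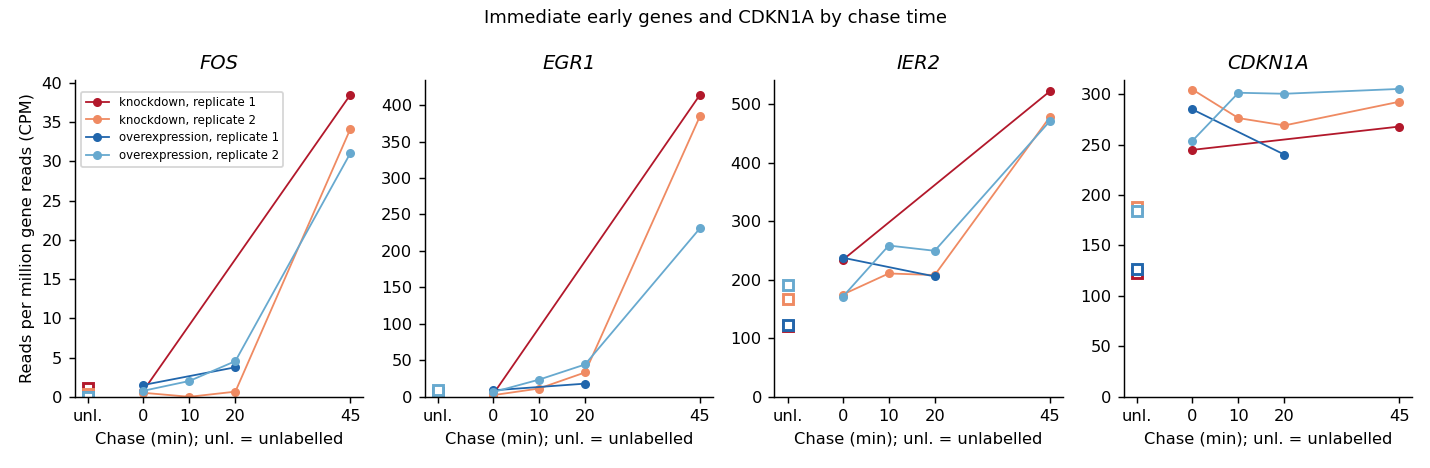
CPM (y axis, linear from 0) against chase time in min (x axis, to scale) for FOS, EGR1, IER2 and CDKN1A, with 1 line per course and the unlabelled libraries as open squares at the left. FOS, EGR1 and IER2 are highest at 45 min in the 3 courses that hold it, whereas all CDKN1A circles lie at or above 240.0 CPM from 0 min on.

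The size of the change followed the base composition of the 3′ UTR in some courses. In the test over 16 libraries the median log2 change was 0.25 in the lowest of 5 equal bins of genes by T share, and 0.14, -0.00, -0.12 and -0.23 in the next bins. By course, the lowest and highest bins had medians of 0.86 and -0.54 in knockdown replicate 1, 0.08 and -0.07 in knockdown replicate 2, 0.18 and -0.06 in overexpression replicate 1 and 0.01 and 0.01 in overexpression replicate 2. The correlation across genes was -0.360 (Spearman), and -0.374 in the replicate 1 and -0.094 in the replicate 2 courses. With the GC share of the interval, taken from hg38, it was 0.406, and 0.424 and 0.093 in the same courses. These values therefore do not single out T share from base composition at large. Genes are not independent replicates, and the points share libraries. The unlabelled knockdown replicate 1 library also had the most covered T positions per read, 26.3, and the unlabelled overexpression replicate 1 library the fewest of the 16, 20.7. The 33 lower genes had a median T share of 32.5% and the 7 higher ones 24.8%, against 29.3% over all genes. An offset for T share was fitted to each library's own trend, so it brings the bins' medians near 0 by construction (-0.01 and -0.03 at the ends). With it edgeR gave 102 calls, 30 of them among the 40. The part of this composition in the calls was not tested otherwise.

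Gene span showed a trend of the same direction in all 4 courses. The bins of the shortest and longest genes had medians of 0.35 and -0.03 in knockdown replicate 1, 0.06 and -0.07 in knockdown replicate 2, 0.23 and -0.17 in overexpression replicate 1 and 0.07 and -0.07 in overexpression replicate 2. The correlation over the 12675 genes with a span was -0.219 (Spearman), and -0.192 in the replicate 1 and -0.154 in the replicate 2 courses. Span and T share were themselves related (0.268). Within each bin of T share in the replicate 2 courses the shortest genes still had the higher median, 0.11 against 0.01 in the longest genes at the lowest T share and 0.05 against -0.06 at the highest. The 33 lower genes had a median span of 53090 bp and the 7 higher ones 7779 bp, against 31620 bp over all genes.

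The conversion of a gene was compared with its change as well. The correlation of the log2 change with the background-corrected T-to-C rate at 0 min was -0.081 (Spearman, 11305 genes), with -0.098 in the replicate 1 and -0.056 in the replicate 2 courses.

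**Figure D5:**
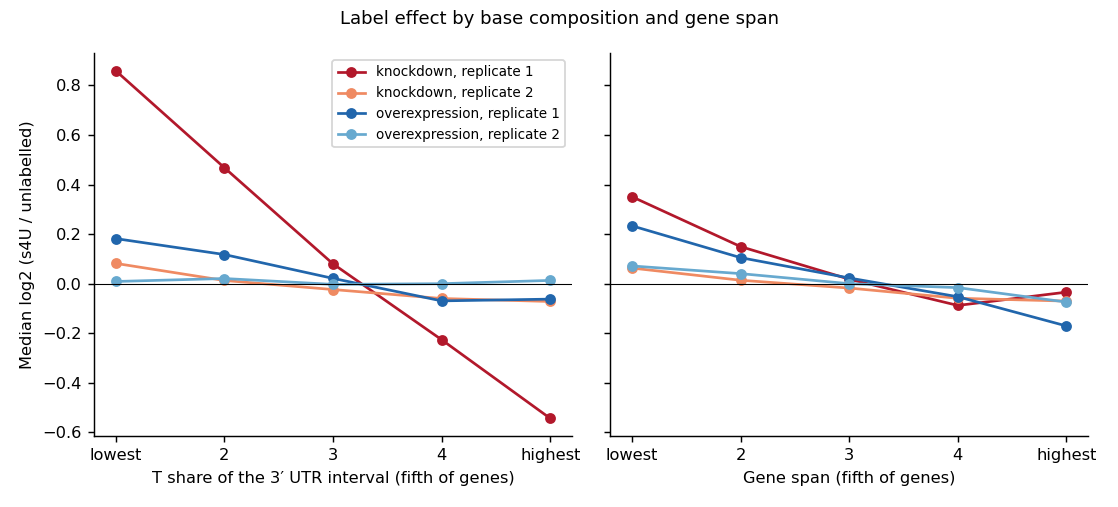
Median log2 change, s4U over unlabelled (y axis), in 5 equal bins of genes by T share of the 3′ UTR interval (left) and by gene span (right), with 1 line per course and a line at 0. Knockdown replicate 1 runs from 0.86 to -0.54 over T share and overexpression replicate 2 stays at 0.01 at both ends, while all 4 courses have a lower median in the bin of the longest genes than in that of the shortest.

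Within lines, edgeR called 78 genes in the line labelled knockdown (0.608%) and 27 in the line labelled overexpression (0.211%). The test of the difference itself called 3 genes (0.0234%). DPM1, a subunit of the synthase that makes dolichol-phosphate mannose, had a change of -1.03 in knockdown and 0.81 in overexpression, a difference (knockdown minus overexpression) of -1.84 ± 0.31 (adjusted p 0.0326, edgeR). Its s4U libraries read 50.3 to 57.6 CPM in knockdown and 53.6 to 91.5 CPM in overexpression, so the unlabelled libraries, at 143.7 and 80.1 CPM in knockdown and 34.03 and 49.3 CPM in overexpression, differed more between lines than the s4U ones. The values of 143.7 and 34.03 CPM came from the unlabelled replicate 1 libraries that stood apart from their line. UBE2T, a ubiquitin-conjugating enzyme gene of the Fanconi anaemia pathway, had -1.20 in knockdown and 0.56 in overexpression, a difference of -1.76 ± 0.31 (adjusted p 0.0484, edgeR). This test too included the unlabelled replicate 1 libraries that stood apart from their line. The s4U library of overexpression replicate 1 at 20 min was also far above the others of its line for UBE2T, at 209.4 CPM. HSD17B6 was read at 0 in both unlabelled overexpression libraries and at 10.9 CPM or less elsewhere among the 16, too few reads for a fold.

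The labelled cell type could be read in part. MITF (33.7 to 108.5 CPM with s4U) and PAX6 (51.4 to 118.5 CPM), transcription factors of the pigment epithelium, were expressed, and so were the keratins KRT8 and KRT18, whereas the visual cycle genes RPE65, RLBP1 and LRAT and the pigment gene TYR stayed at or under 1.06 CPM in all 16 libraries. The blood markers PTPRC, CD3E, HBB and LYZ stayed at or under 0.559 CPM, and CD4 reached 1.035 CPM in an unlabelled library. Markers of other cell types were mixed. With s4U the mesenchymal genes VIM and FN1 read 6623 to 9323 and 1023 to 5362 CPM, and COL1A2 at most 0.802 CPM. The neuron genes SYT1 and MAP2 read 3.17 to 18.1 and 0.620 to 14.6 CPM, and RBFOX3 at most 0.0443 CPM. The keratinocyte gene KRT10 read 79.4 to 114.8 CPM, and KRT5 and KRT14 at most 0.182 and 0.0591 CPM.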

How the data were processed

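RNA was made into 3′ end libraries (QuantSeq) without molecular identifiers. Per the file headers, SLAMdunk 0.4.3 produced each table, and per the labels reads were mapped to hg38; no source used here gives the release of the UTR intervals. The authors deposited read counts, covered T positions and T-to-C conversions for each of 71668 intervals, the conversion rate of the interval as a fraction, and reads scaled to the mapped total (CPM), with replicates kept apart. The deposited T content equalled that of hg38 in 100% of intervals.

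From these counts, reads were summed by gene name. Intervals naming more than 1 gene (1168, with 2.28 to 2.74% of reads) were dropped, and CPM in the text was computed anew from the summed reads. Depth ran between 14712332 and 44480703 reads in 3′ UTR intervals per early or unlabelled library, or 65.4 to 75.5% of mapped reads, and TMM factors between 0.983 and 1.014. Genes were kept by filterByExpr on line and label. edgeR 4.0.16 (limma 3.58.1, R 4.3.3) fitted quasi-likelihood models to the 16 libraries with line as covariate, or line by label for the lines and their difference, with Benjamini-Hochberg adjustment over all genes tested and a threshold of 0.05; SE is the log2 change over the root of F. DESeq2 1.42.0, RLE factors, no filter, the replicate block, course sums, 0 min libraries, single replicates, omitted libraries, intervals with at most 10% multimapped reads (7814 intervals lay above) and an offset for T share (lowess, span 0.3) were alternatives. The edgeR script was tested on simulated counts with known changes. Conversion rates were averaged per course and compared by an exact permutation test (scipy 1.17.1). Gene span and promoters came from RefSeq.

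The unlabelled cells were made at the same time as the labelled cells of a course, so equal replicate numbers were taken to pair libraries. Deviations of same-numbered labelled and unlabelled libraries from their group means correlated at 0.174 in knockdown and 0.213 in overexpression (11044 genes). The difference of unlabelled replicate 1 minus 2 correlated at 0.201 between the lines, which share no library. The values therefore do not bear out the pairing.

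Named genes were the 12 largest rises and 12 largest falls among called genes with a mean of at least 10 CPM and the same sign in 4 courses, up to 4 called members and the textbook marker of each list, CCND1, the genes of the difference between lines, and others where stated as seen first. List members given without a call were picked after their values were seen, as were EGR1 and IER2. Members of lists, lists and tests were chosen with earlier results of these data known. The gene behind the single call of the replicate 1 courses is not reported here.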

Additional observations from a re-analysis of the deposited data

Results flagged for a closer look

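In 8 of 84 groups of 6 s4U libraries of 1 line, 1 library lay far from the other 5, measured as its gap to the nearest library over the whole range of the group. Chance gives about 1 in 20 such groups. The overexpression replicate 1 library at 20 min accounted for 4 of them, with PPP1R15A low at 114.9 CPM (gap 0.746 of the range), HSPA5 low at 630.2 CPM (0.675), NCL low at 505.6 CPM (0.836) and UBE2T high at 209.4 CPM (0.634). In knockdown the cases were SERPINA1 high at 2.18 CPM in replicate 2 at 20 min (0.797), LRRCC1 low at 9.04 CPM in replicate 1 at 45 min (0.715), HSPA5 high at 1172 CPM in replicate 1 at 0 min (0.640) and NFKBIA high at 202.8 CPM in replicate 2 at 10 min (0.707).

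The s4U effect differed between lines by the edgeR test of the difference (knockdown minus overexpression) for 3 genes. The log2 difference was -1.84 for DPM1, -1.76 for UBE2T and -10.15 for HSD17B6, the last a fitted value that depends on the prior count, since both unlabelled overexpression libraries had 0 reads.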

How the results depend on the processing

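The count of 40 genes depended on the processing, and the cause was not tested except where fewer libraries or genes entered. edgeR gave 45 calls with RLE size factors, 109 with no filter on low counts, 102 with the T share offset, 20 with that offset and the replicate block, 17 with the replicate block alone, 16 in the replicate 2 courses, 1 in the replicate 1 courses, 9 with intervals of at most 10% multimapped reads (where HSPA5 had no interval left), 2 with the unlabelled replicate 2 libraries alone, and 0 with course sums (477 at an unadjusted p under 0.05), course sums with the block (669) and 0 min libraries only (431). DESeq2 gave 512. Leaving out a library or course gave 0 to 1249 calls, each over 1.5 times from 40: 1249 without the unlabelled overexpression replicate 2 library, 993 without the unlabelled knockdown replicate 2 library, 71 without the overexpression replicate 1 library at 20 min, and 0 to 9 without any other library or course. All 40 genes kept their sign in these 20 omissions. CDKN1A was called in 19 of them, at 0.75 to 0.97 on the log2 scale (adjusted p 0.0020 to 0.083, lost without overexpression course replicate 2, edgeR), LRRCC1 in 9, ATM and SERPINA1 in 7, RAD51AP1 in 4, and PPP1R15A, PHLDA3, RHBDD2, VAT1, HSPA5, SEL1L, NUF2 and SRSF4 in 3. SERPINA1 ran from -5.31 to -1.23.

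In knockdown (78 calls) DESeq2 gave 713, no filter 321, course sums 0, the replicate 2 course 14 and the replicate 1 course 2995. In overexpression (27 calls) they gave 238, 88, 0, 11 and 1323, and the block 4. For the difference between lines (3 calls) DESeq2 gave 141, no filter 11, course sums 0, the replicate 1 courses 1642, and the T share offset with or without the block, the unlabelled replicate 2 libraries alone and the 0 min libraries 0 each (edgeR). Omissions gave 0 to 4293 calls in knockdown (4293 without its unlabelled replicate 2 library, 0 without its unlabelled replicate 1 library), 1 to 2010 in overexpression (2010 and 1 likewise) and 0 to 2721 for the difference (2721 and 1049 without the unlabelled replicate 2 library of knockdown and overexpression, 0 without either unlabelled replicate 1 library). With the T share offset without and with the block, knockdown had 56 and 4 calls and overexpression 100 and 11; with the unlabelled replicate 2 libraries alone they had 0 and 4, and with 0 min libraries 0 each. The Spearman correlation with T share was -0.094 in the replicate 2 courses, against -0.360. The rate difference of 0.863 percentage points was 0.863, 0.879 and 0.886 under its alternatives (at least 100 covered T, at most 10% multimapped, 0 min only), each at an exact permutation p of 0.0286. Of 35 gene list medians, 9 moved by over the spread between courses in the replicate 1 courses and 8 in the replicate 2 courses, and 0 with course sums.

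Called genes reversed in no alternative among those named by size. Uncalled marker genes did, on the log2 scale. With the unlabelled replicate 2 libraries alone and in the replicate 2 courses, the values were 0.36 and 0.30 for MDM2, 0.42 and 0.34 for HMOX1, 0.25 and 0.14 for MYC, -0.0070 and -0.032 for UPP1, -0.12 and -0.14 for SLC29A1, -0.16 and -0.11 for MKI67 and -0.066 and -0.012 for CCND1. With the T share offset without and with the block, they were -0.063 and -0.065 for DDIT3, 0.25 and 0.26 for MYC, -0.036 and -0.031 for NCL, -0.079 and -0.037 for UCK2 and -0.016 and -0.031 for MKI67. The replicate 1 courses gave -0.53 for ATF3, -0.13 for DDIT3 and -0.13 for UCK2, and the 0 min libraries -0.56 for ATF3 and -0.022 for CCND1. MYC was 0.065 with the block, 0.12 with course sums, 0.13 with both and 0.00093 with intervals of few multimapped reads, and UCK2 -0.0022 with DESeq2 and -0.0024 with RLE size factors. Over the omissions MDM2 ran from -0.34 to 0.085, ATF3 from -0.21 to 1.28, DDIT3 from -0.10 to 0.22, HMOX1 from -0.85 to 0.30, MYC from -0.26 to 0.34, UCK2 from -0.068 to 0.12, SLC29A1 from -0.025 to 0.24, MKI67 from -0.19 to 0.17 and CCND1 from -0.13 to 0.25.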
